A study of Mus musculus with 4 samples.

Results

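The genes described here encode band 3 of the red cell membrane, its anchors to the membrane skeleton and a group of surface proteins that sit beside it or carry blood group antigens. They were chosen by name: Slc4a1, Ank1, Epb42, Rhag, Rhd, Kel, Xk, Cd47 and Icam4, 9 of the 17393 genes in the deposited table, all of which were found and all of which passed the filter on low values. The cells were DS19 mouse erythroleukemia (MEL) cells, a transformed line of erythroid precursors. The groups were wild-type cells (2 libraries) and Wdr26-/- cells (2 libraries), called knockout below, and the libraries carried the numbers 1 and 2 in each group. Wdr26 encodes a subunit of the CTLH ubiquitin ligase. Both groups share the line and the medium. The culture description mentions dimethyl sulfoxide as an inducer of differentiation without saying whether the sequenced cells received it, and the labels do not say how the knockout was made or whether it is 1 clone.

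Band 3 exchanges chloride for bicarbonate across the red cell membrane, and its cytoplasmic end ties the membrane to the spectrin skeleton through ankyrin-1 and protein 4.2. The Rh proteins, CD47 and ICAM-4 are found in the same ankyrin-based complex, while the Kell protease is linked to the transporter-like protein XK. The genes of these proteins are switched on in steps as erythroblasts mature, and band 3 is a protein of the later steps.

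Expression was measured as FPKM, fragments per kilobase of transcript and per unit of sequencing depth. Steps in the lowest values corresponded to about 26200000 to 27300000 fragments per library, so depth was similar in the 4 libraries. Wdr26 itself reached 55.4 and 52.4 FPKM in wild-type libraries 1 and 2 and 9 and 7.84 FPKM in knockout libraries 1 and 2, a log2 change of −2.55 (SE 0.14, limma with Benjamini-Hochberg adjustment, adjusted p = 0.0063). Without the filter on low genes its adjusted p was 0.0675, the highest over the alternatives, of which the lowest was 2.11e-37. All 9 erythroid markers were measured, and their summed level, most of it alpha globin, was 168988 and 207854 FPKM in the wild-type libraries against 153750 and 179257 FPKM in the knockout libraries. The 3 lymphoid markers, 2 of 3 mast cell markers and 1 of 3 fibroblast markers were in the table and stayed below 1 FPKM in every library, and of 6 myeloid markers only Cebpa reached it. Of 6 megakaryocyte markers 5 reached 1 FPKM in a library, and the 6 summed to 249.6 and 304 FPKM in the wild-type libraries against 275 and 285 FPKM in the knockout libraries. In bulk RNA, fewer cells of a type and less RNA per cell cannot be told apart. The labels do not tell whether libraries of the same genotype came from separate cultures, and a p-value here reflects only how far these samples spread, which may be a technical spread.

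The comparison of knockout with wild type asks whether these transcripts differ once Wdr26 is lost. The band 3 transcript stood far lower in both knockout libraries, protein 4.2 was lower by a smaller amount, and the log2 changes of the ankyrin, Rh, Kell, XK, CD47 and ICAM-4 transcripts lay between −0.32 and 0.05. None of the 9 genes passed the test at an adjusted p under 0.05 (limma, over all 10670 genes tested), where 0.0937% of all tested genes passed (10 genes). At an unadjusted p under 0.05 there was 1 gene, Slc4a1, beside 11.4% of all tested genes. Both knockout libraries lay below both wild-type libraries for 5 of the 9 genes, Slc4a1, Epb42, Kel, Cd47 and Icam4, and above them for 0. Of all tested genes, 10.8% lay lower in both knockout libraries and 29.9% lay higher. With each library centred on its median the shares of all genes were 20.1% and 19.9%, and Ank1 joined the genes that were lower in both, which made 6. The median log2 change was −0.20 over the 9 genes and −0.18 over the 8 without Slc4a1, beside 0.07 over all tested genes.

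**Figure D1:**
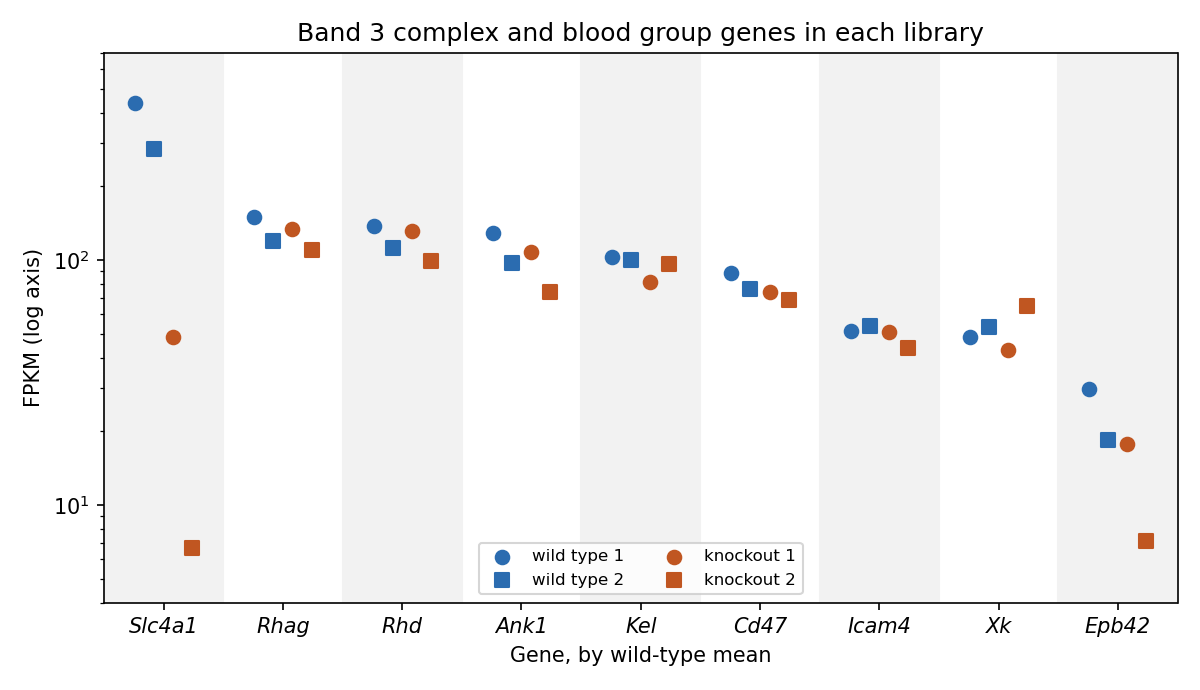
FPKM (log axis) of each of the 9 genes in each library, ordered by the wild-type mean; blue marks wild type and orange marks knockout, circles library 1 and squares library 2. Slc4a1 is the highest of the genes in wild type, at 436 and 285 FPKM, and stands at 48.6 and 6.70 FPKM in knockout, while Epb42 runs from 29.9 down to 7.13 FPKM over the 4 libraries.

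Slc4a1 (gene ID 20533, chromosome 11, 102348820 to 102365281, GRCm38.p6, the mm10 assembly) encodes band 3, the anion exchanger itself. Wild-type libraries 1 and 2 gave 436 and 285 FPKM, and knockout libraries 1 and 2 gave 48.6 and 6.70 FPKM. The groups were far apart, and the knockout libraries also differed from each other 7.25-fold, against 1.53-fold between the wild-type libraries. The wild-type mean was 360 ± 107 FPKM and the knockout mean 27.6 ± 29.6 FPKM (SD, n = 2 each), or 7.67% of wild type. Taken library against library, a knockout value was between 1.54% and 17.1% of a wild-type value. At the estimated depth these levels correspond to about 50200 and 33800 fragments in wild type and to about 5640 and 763 in knockout.

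The log2 change of Slc4a1 was −4.18 (SE 0.80, 95% interval −6.12 to −2.24), the most negative of the 10670 tested genes, the next being −3.66. It missed the threshold (limma adjusted p = 0.166, unadjusted p = 0.0018), and 115 genes had an unadjusted p as small or smaller. On the log2 scale the 2 knockout libraries were 2.69 apart for Slc4a1, the 4th widest gap among tested genes. Without knockout library 1 the log2 change was −5.52 and without knockout library 2 it was −2.83, and it passed the threshold in both of these fits, in which only the wild-type pair gives a spread. Without wild-type library 1 it was −3.87 and without wild-type library 2 −4.48, and it did not pass. Only 1 RefSeq transcript stands behind the value, and no other gene overlaps it in the RefSeq gene table.

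**Figure D2:**
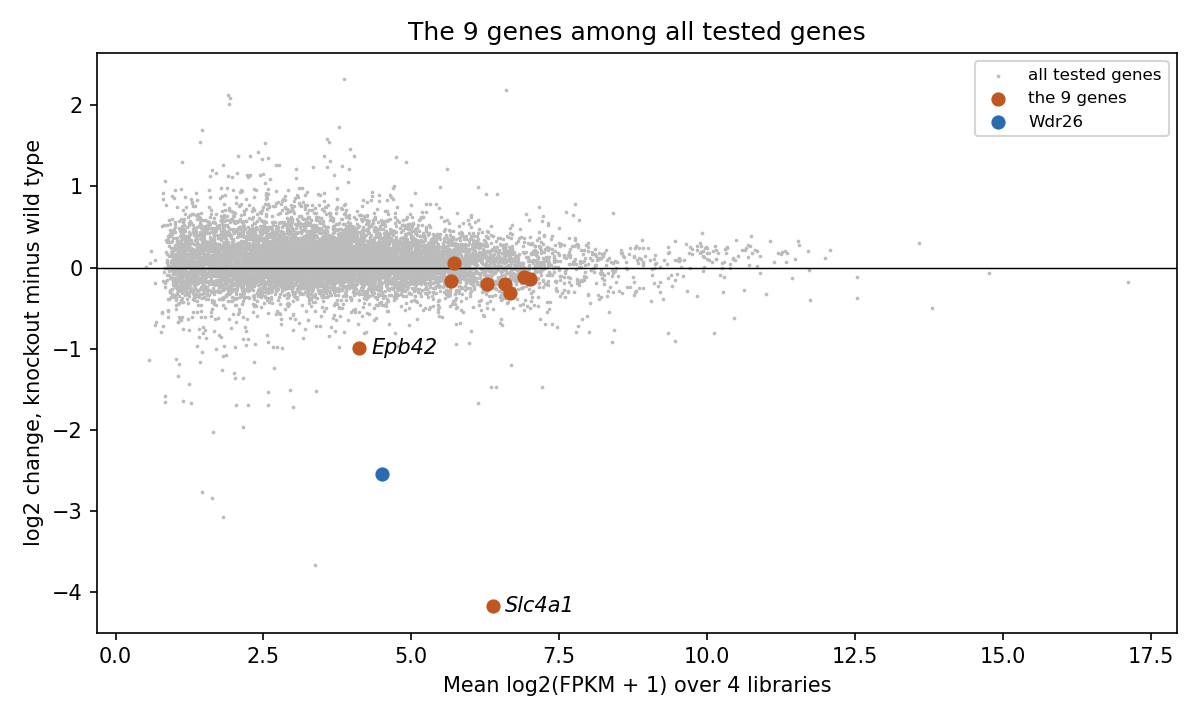
Log2 change (knockout minus wild type) against the mean log2(FPKM + 1) over the 4 libraries for the 10670 tested genes (grey), the 9 genes (orange) and Wdr26 (blue). Slc4a1 lies lowest, at −4.18, and Epb42 at −0.99, while the other 7 of the 9 genes lie between −0.32 and 0.05.

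Of the anchors of band 3, Epb42 (gene ID 13828, chromosome 2, 121017891 to 121036877) encodes protein 4.2, which binds the cytoplasmic end of band 3 and ankyrin. It had wild-type values of 29.9 and 18.4 FPKM and knockout values of 17.7 and 7.13 FPKM. The groups did not overlap, but knockout library 1 and wild-type library 2 lay within 1 FPKM of each other. The knockout mean was 51.5% of the wild-type mean, and the log2 change of −0.99 (SE 0.41, 95% interval −1.99 to 0.02) was the 43rd most negative and did not pass (limma adjusted p = 0.449). It was −1.59 without knockout library 1, where it passed, and −0.39 without knockout library 2.

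Ank1 (gene ID 11733, chromosome 8, 22974836 to 23150501) encodes ankyrin-1, the bridge from band 3 to beta spectrin. It measured 129 and 96.9 FPKM in the wild-type libraries against 108 and 74.2 FPKM in the knockout libraries. The groups overlapped, since knockout library 1 was above wild-type library 2. The log2 change was −0.32 (95% interval −0.88 to 0.24, limma adjusted p = 0.695). Leaving out knockout library 1 gave −0.59, which passed, and leaving out knockout library 2 gave −0.05. The Ank1 value covers 13 listed transcripts, 2 of them assembled from the reads, and the gene overlaps Mir486 and other noncoding genes, so it is less certain than those of Slc4a1 and Epb42.

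The Rh genes encode the channel-like core of the Rh complex. Rhag (gene ID 19743, chromosome 17, 40811099 to 40844094), the Rh-associated glycoprotein, reached 150 and 119 FPKM in wild-type libraries 1 and 2 and 134 and 110 FPKM in knockout libraries 1 and 2. Rhd (gene ID 19746, chromosome 4, 134864536 to 134896172), the Rh antigen gene, had wild-type values of 137 and 112 FPKM and knockout values of 131 and 98.8 FPKM. In both genes the groups overlapped, and library 1 was higher than library 2 in each genotype. The log2 changes were −0.14 for Rhag (95% interval −0.57 to 0.28) and −0.12 for Rhd (−0.58 to 0.34), and neither passed (limma adjusted p = 0.850 and 0.891). The level of Rhd per Rhag stayed between 0.90 and 0.98 in the 4 libraries. Without wild-type library 1 both changes turned slightly positive (0.02 and 0.03), and without knockout library 2 that of Rhd was 0.08.

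Of the surface proteins that other cells recognise, Cd47 (gene ID 16423, chromosome 16, 49851328 to 49912503) encodes the ligand through which red cells restrain phagocytosis by macrophages. It measured 88.3 and 76.3 FPKM in the wild-type libraries against 73.9 and 68.7 FPKM in the knockout libraries. Icam4 (gene ID 78369, chromosome 9, 21029432 to 21030596) encodes the integrin ligand that carries the Landsteiner-Wiener antigen. It reached 51.4 and 54.0 FPKM in wild-type libraries 1 and 2 and 50.7 and 43.6 FPKM in knockout libraries 1 and 2. For both genes the knockout libraries were the lower ones, by gaps smaller than the difference between the libraries of a group. The log2 changes were −0.20 for Cd47 (95% interval −0.54 to 0.14) and −0.16 for Icam4 (−0.50 to 0.18), and neither passed (limma adjusted p = 0.679 and 0.756). The change of Cd47 was −0.098 when wild-type library 1 was dropped and −0.31 when wild-type library 2 was. For Icam4 it was −0.27 after dropping knockout library 1 and −0.054 after dropping knockout library 2. Cd47 overlaps another gene, Gm4633, and 3 of its 4 transcripts were assembled from the reads.

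Kel and Xk encode the linked pair of the Kell system. Kel (gene ID 23925, chromosome 6, 41686329 to 41704334), an endothelin-processing protease, had wild-type values of 103 and 101 FPKM and knockout values of 81.0 and 96.0 FPKM. Xk (gene ID 22439, chromosome X, 9272784 to 9313245), a membrane protein with lipid scramblase relatives, measured 48.6 and 53.4 FPKM in the wild-type libraries against 43.0 and 65.0 FPKM in the knockout libraries. Kel was a little lower in both knockout libraries, and the knockout libraries of Xk lay on either side of wild type. The log2 changes were −0.20 for Kel (95% interval −0.55 to 0.14) and 0.05 for Xk (−0.46 to 0.57), and neither passed (limma adjusted p = 0.680 and 0.962). That of Kel was −0.083 when knockout library 1 was omitted and −0.33 when knockout library 2 was. The sign of the Xk change turned under each scaling alternative, to −0.02 with median-centred values. The value of Kel includes 2 assembled transcripts, and Xk overlaps H2al1m.

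**Figure D3:**
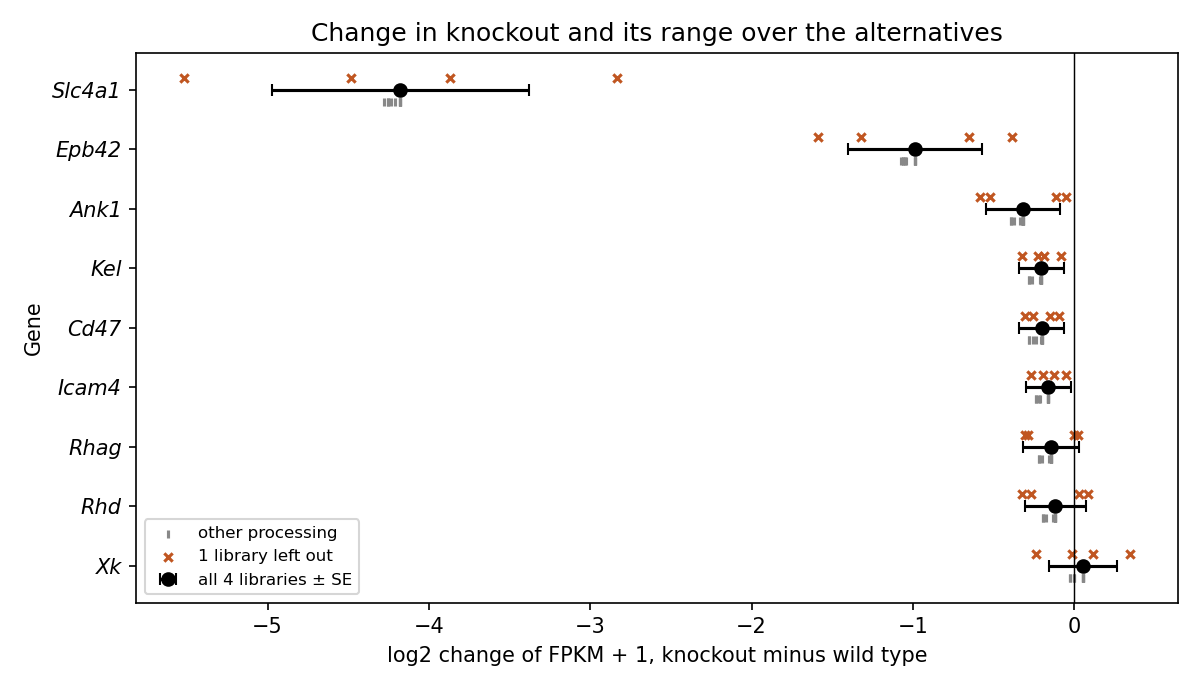
Log2 change of each of the 9 genes: black points and bars give the fit to all 4 libraries ± SE, orange crosses the fits with 1 library left out, and grey ticks the other processing alternatives. Slc4a1 runs from −5.52 to −2.83 with a library left out, and Xk from −0.24 to 0.35.

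FPKM is scaled to transcript length, so levels can be set beside each other. In wild type the order of the means was Slc4a1, Rhag, Rhd, Ank1, Kel, Cd47, Icam4, Xk and Epb42. Slc4a1 was above all others in both wild-type libraries. Rhag, Rhd and Ank1 overlapped as neighbours, as did Ank1 and Kel, and Icam4 and Xk, whereas Cd47 and Epb42 each stood clear of their neighbours. In knockout library 1 Slc4a1 was 7th of 9 and in knockout library 2 it was 9th, below Epb42, with Rhag first and Rhd second in both.

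The summed level of the 8 genes other than Slc4a1 was 738 and 630 FPKM in the wild-type libraries against 639 and 563 FPKM in the knockout libraries, so these sums overlapped. With Slc4a1 included, the sums were 1174 and 915 FPKM in the wild-type libraries against 688 and 570 FPKM in the knockout libraries. Slc4a1 made up 37.1% and 31.1% of the sum in wild type and 7.07% and 1.18% in knockout. Per Ank1 transcript level, Slc4a1 stood at 3.37 and 2.94 in wild type and at 0.45 and 0.090 in knockout. Per Epb42 level it stood at 14.6 and 15.5 in wild type and at 2.74 and 0.94 in knockout. These ratios were close between the wild-type libraries, although the wild-type levels of all 3 genes were higher in library 1. The difference in change between Slc4a1 and the other genes was not tested.

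**Figure D4:**
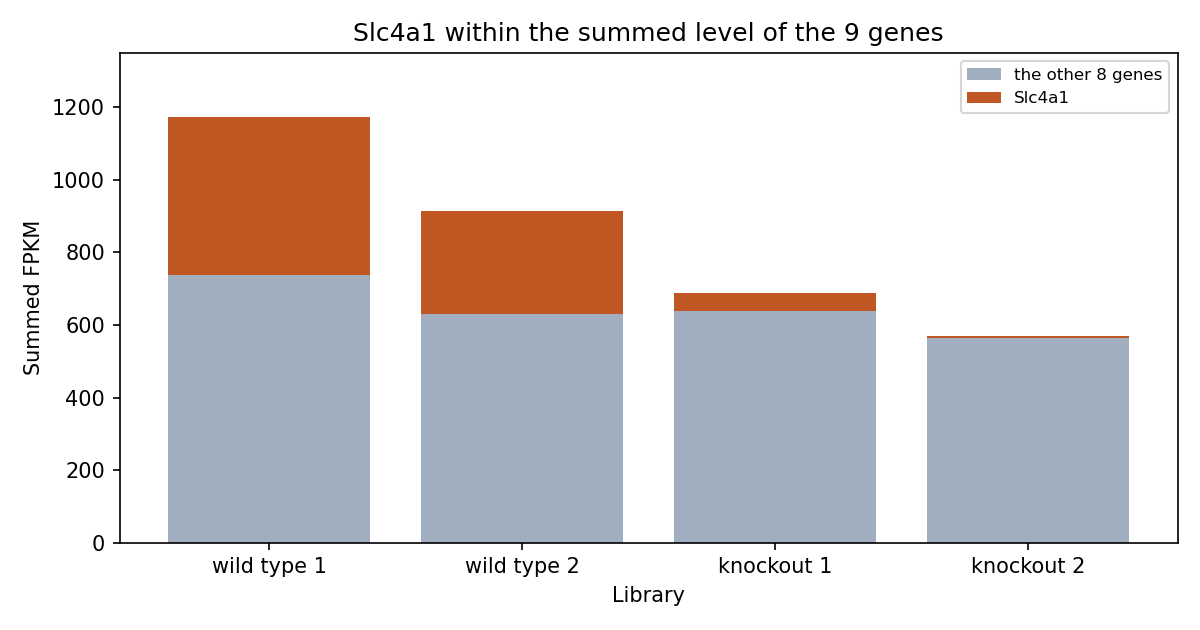
Summed FPKM of the 9 genes in each library, split into Slc4a1 (orange) and the other 8 genes (grey). The grey part is 738 and 630 FPKM in the wild-type libraries against 639 and 563 FPKM in the knockout libraries, and the orange part is 37.1% and 31.1% of the bar in wild type and 7.07% and 1.18% in knockout.

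The libraries numbered 2 were lower than those numbered 1 in both genotypes for 6 of the 9 genes (Slc4a1, Ank1, Epb42, Rhag, Rhd and Cd47), as for 46.5% of all tested genes. The labels do not say what the number stands for, and its part in the results was not tested. Transcripts with a pattern like that of Slc4a1 were sought among 5714 other tested genes with a wild-type mean of at least 10 FPKM, by Euclidean distance over the 4 libraries on log2(FPKM + 1) relative to the wild-type mean. The closest was Wdr26 itself, at a distance of 2.94, followed by the apolipoprotein L genes Apol11a (3.56) and Apol11b (3.59), the assembled locus BGI_novel_G001130 (3.87) and the noncoding RNA Neat1 (3.95). These were only the nearest genes, with log2 changes from −3.66 to −1.47 beside −4.18 for Slc4a1. Because the genes were picked by closeness to Slc4a1 in these same values, their falls follow from the search. In knockout libraries 1 and 2 Wdr26 had similar values (9 and 7.84 FPKM), and BGI_novel_G001130 was higher in library 2 (0.17 and 6.20 FPKM). The groups of Neat1 overlapped, with 97.1 FPKM in knockout library 1 and 77.9 FPKM in wild-type library 2. Apol11b, for example, reached 177 and 86.1 FPKM in wild-type libraries 1 and 2 and 75.6 and 18.9 FPKM in knockout libraries 1 and 2, without passing (limma adjusted p = 0.408).

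GATA1, the main erythroid transcription factor, binds DNA at short sequences that hold GATA, and the bases before the start of these genes are shown because most of these genes are typical of erythroid cells. The RefSeq promoter table (GRCm38.p6) held 7 of the 9 genes, and those without an entry were Slc4a1 and Ank1. The motif searched was GATAA on either strand (TTATC when read on the other strand) within the 250 bases before the start that this table uses. That start is the outer end of the gene for Epb42, Rhd, Icam4 and Xk, but lies inside the gene as annotated by 9 bases for Kel, by 50 for Rhag and by 4326 and 4333 for the 2 windows of Cd47. The letters were found in the windows of Epb42, Rhag, Rhd, Kel and Icam4 and in none of those of Cd47 and Xk, while 22.6% of the 32851 windows of all genes held them. The match of Rhag lies inside the annotated gene and is not shown. The stretches below surround the match nearest the start in the other 4 genes, outside the annotated gene, read 5′ to 3′ on the gene's strand with the match in capitals.
Epb42, chr2:121037071-121037127, minus strand: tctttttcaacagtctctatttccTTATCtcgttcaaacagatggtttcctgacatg
Rhd, chr4:134864466-134864526, plus strand: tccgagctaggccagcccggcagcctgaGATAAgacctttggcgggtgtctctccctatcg
Kel, chr6:41704335-41704371, minus strand: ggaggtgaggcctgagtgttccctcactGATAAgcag
Icam4, chr9:21029361-21029421, plus strand: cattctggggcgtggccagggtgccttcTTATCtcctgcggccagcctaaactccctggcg
Counted from the start in the table, the match lay 222 bases before Epb42, 38 before Rhd, 14 before Kel and 39 before Icam4, and Kel held another one 51 bases before its start. A match is a description of letters and not a measured binding site.

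Other proteins of the band 3 complexes and the skeleton were measured for comparison, with 14 of 15 tested. None passed. Both knockout libraries lay below wild type for 5 genes and above it for 2, with 3 at an unadjusted limma p under 0.05 and a median log2 change of −0.11. Of all tested genes, 10.8% lay below, 29.9% lay above and 11.4% had such a p. With median-centred values the list had 6 genes below and 1 above, where 20.1% and 19.9% of all genes lay. Slc2a1, the glucose transporter GLUT1, had wild-type values of 126 and 110 FPKM and knockout values of 81.2 and 63.1 FPKM (limma adjusted p = 0.238). In the same order, wild-type libraries first, Gypc, the glycophorin that anchors protein 4.1, had values of 317 and 289 FPKM against 248 and 201 FPKM (limma adjusted p = 0.391). The adducin gene Add2 had values of 162 and 134 FPKM against 130 and 101 FPKM. Stom, which encodes stomatin, went the other way and measured 88.2 and 82.3 FPKM in the wild-type libraries against 118 and 129 FPKM in the knockout libraries (limma adjusted p = 0.249).

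Among 32 other genes behind blood groups, 22 were tested and 0 passed, with 9 at an unadjusted limma p under 0.05. Of these 22 genes, both knockout libraries lay above wild type for 11 and below it for 4, with a median log2 change of 0.16, where 29.9% of all tested genes lay above, 10.8% lay below and 11.4% had an unadjusted p under 0.05. Median-centred values gave 8 above and 4 below, beside 19.9% and 20.1% of all genes. Emp3, of the MAM group, measured 4.54 and 8.15 FPKM in the wild-type libraries against 13.3 and 22.8 FPKM in the knockout libraries (limma adjusted p = 0.232). Bcam, the Lutheran glycoprotein that binds laminin, had values of 3.87 and 5.05 FPKM against 8.53 and 10.6 FPKM (limma adjusted p = 0.166). Cd59a, a complement inhibitor, had 0.62 and 0.47 FPKM against 1.95 and 2.09 FPKM. It entered the test only through its knockout values, since both wild-type values were below 1 FPKM. A gene that passes the filter in this way can only be higher in knockout. Art4, the Dombrock gene, was lower in both knockout libraries, with 3.17 and 2.13 FPKM against 1.25 and 0.51 FPKM.

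**Figure D5:**
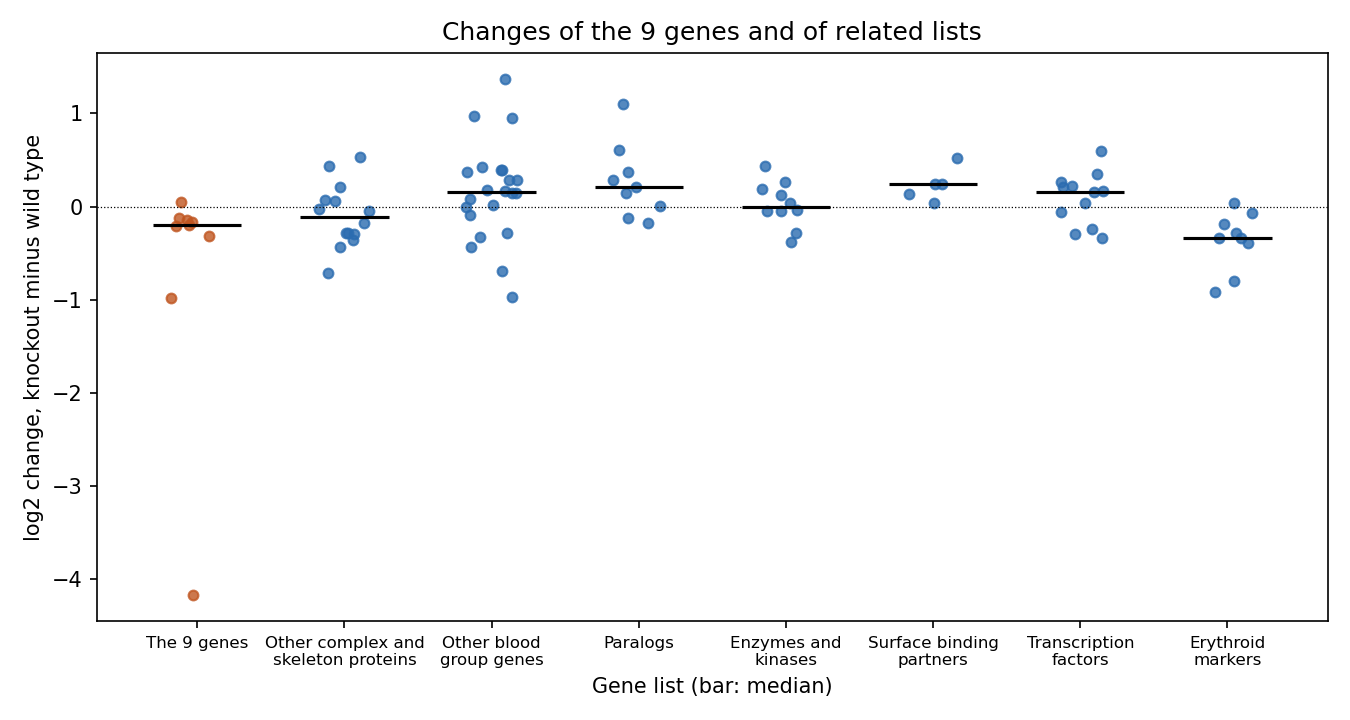
Log2 change of each tested gene of the 9 and of 7 related lists (points, with a bar at the median). No gene of the other lists lies near Slc4a1 at −4.18, and the medians run from −0.34 for the erythroid markers to 0.24 for the binding partners of the surface proteins.

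Of 33 listed paralogs of the 9 genes, 9 were tested, 0 passed, and the median log2 change of the 9 was 0.21. An unadjusted limma p under 0.05 was found for 3 of them (Icam1, Ece1 and Tgm1), beside 11.4% of all tested genes. Each was higher in both knockout libraries, as were 29.9% of all tested genes. With median-centred values 3 paralogs were also higher in both, beside 19.9% of all genes. The paralog of band 3 with the highest level, Slc4a2 (the widely expressed exchanger AE2), reached 20.9 and 18.4 FPKM in wild-type libraries 1 and 2 and 26.7 and 19.4 FPKM in knockout libraries 1 and 2 (log2 change 0.21, limma adjusted p = 0.771), which put it above Slc4a1 in knockout library 2. Icam1, which neighbours Icam4 on chromosome 9, had wild-type values of 4.85 and 4.47 FPKM and knockout values of 11.4 and 10.8 FPKM, 2.39-fold higher (log2 change 1.10, SE 0.14, limma adjusted p = 0.0803). Ece1, a protease related to Kell, had values of 12.5 and 10.6 FPKM against 17.9 and 18.2 FPKM, and the transglutaminase gene Tgm1, a relative of Epb42, had 14.7 and 14.8 FPKM against 21.01 and 17.7 FPKM. The ankyrin genes Ank2 and Ank3 stayed below 1 FPKM in every library.

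Enzymes and kinases that bind or modify band 3 had a median log2 change of 0.00069 over 10 tested genes, with 0 past the threshold. An unadjusted limma p under 0.05 was found for 1 of them, beside 11.4% of all tested genes. Both knockout libraries lay below wild type for 2 and above it for 2, beside 10.8% and 29.9% of all tested genes. With median-centred values the counts were 2 and 0, beside 20.1% and 19.9%. Of the kinases that phosphorylate band 3, Syk had values of 9.05 and 10.7 FPKM against 11.1 and 12.97 FPKM. Lyn, another such kinase, had 12.4 and 13.6 FPKM against 14.4 and 15.4 FPKM. The lactate dehydrogenase gene Ldha measured 815 and 980 FPKM in the wild-type libraries against 742 and 725 FPKM in the knockout libraries. Gapdh had values of 53.3 and 53.2 FPKM against 41.4 and 39.9 FPKM, a value that is uncertain because this gene has many near-identical pseudogenes. Of the binding partners of the surface proteins 5 of 8 were tested and 0 passed, with 1 at an unadjusted limma p under 0.05 (11.4% of all tested genes). Both knockout libraries lay below wild type for 0 of the 5 and above it for 2, beside 10.8% and 29.9% of all tested genes. With median-centred values the counts were 0 and 1, beside 20.1% and 19.9%. The integrin subunit gene Itgb2 reached 19.5 and 26.8 FPKM in wild-type libraries 1 and 2 and 30.1 and 37.0 FPKM in knockout libraries 1 and 2, and Itgav had 2.57 and 2.80 FPKM against 3.01 and 3.70 FPKM.

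Erythroid transcription factors were all tested (12 genes), and 0 passed, with 2 at an unadjusted limma p under 0.05, beside 11.4% of all tested genes. Both knockout libraries lay below wild type for 3 of them and above it for 5 (10.8% and 29.9% of all tested genes), with a median log2 change of 0.16, and with median-centred values for 3 and 3 (20.1% and 19.9%). Klf1, an activator of red cell genes, had wild-type values of 299 and 272 FPKM and knockout values of 260 and 194 FPKM (limma adjusted p = 0.562). Nfe2 had 175 and 218 FPKM against 159 FPKM in both knockout libraries. The cofactor gene Ldb1 had 145 FPKM in both wild-type libraries against 180 and 190 FPKM. Gata2, a factor of earlier precursors, had 2.49 and 2.53 FPKM against 4.11 and 4.52 FPKM. Of the 9 erythroid markers 0 passed, 5 were lower and 0 higher in both knockout libraries, with 1 at an unadjusted limma p under 0.05 and a median of −0.34. The counts were also 5 and 0 with median-centred values, and of all tested genes 10.8% lay lower as deposited and 20.1% when centred. Tfrc, the transferrin receptor gene, measured 531 and 397 FPKM in the wild-type libraries against 314 and 187 FPKM in the knockout libraries (limma adjusted p = 0.313). The alpha globin chaperone gene Ahsp had values of 1778 and 1196 FPKM against 1179 and 593 FPKM. Alas2, the erythroid enzyme of heme synthesis, had 3721 and 4123 FPKM against 2830 and 3136 FPKM. Of 4 tested megakaryocyte markers 0 passed, with 1 at an unadjusted limma p under 0.05, beside 11.4% of all tested genes. In both knockout libraries 1 (Vwf) was lower and 2 (Gp9 and Itga2b) were higher as deposited, beside 10.8% and 29.9% of all tested genes. With median-centred values 1 was lower and 0 were higher, beside 20.1% and 19.9%. The only tested myeloid marker, Cebpa, had 6.67 and 9.97 FPKM against 10.5 and 12.9 FPKM (limma adjusted p = 0.497). The part of these markers in the difference of Slc4a1 was not tested.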

How the data were processed

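The authors deposited 1 table of gene values for the 4 libraries, whose header gives no unit. The deposited values behave as FPKM: their products with transcript length (GENCODE M21) add up to 1.02e+09 to 1.04e+09 per library. The submitters' processing notes name TopHat2 and mm10. The quantification program and the handling of strand are not given in the sources used. Depth was estimated from steps in short genes, taking effective length as 200 bases below transcript length, and is approximate, so no counting interval is given. Values were converted to log2(FPKM + 1), the test took genes that reached 1 FPKM in 2 or more libraries, and knockout was compared with wild type in limma 3.58.1 (R 4.3.3, mean-variance trend, no covariates) with Benjamini-Hochberg adjustment over all tested genes and a threshold of 0.05. The log2 scale with a pseudocount understates changes of low genes. The procedure was also run on simulated data, in which the noise was drawn independently for each library. A difference shared by the libraries of the same number was not simulated, so that run does not cover it. Alternatives were a pseudocount of 0.1, no filter or a mean of at least 5 FPKM, median-centred or quantile-normalized values, globin genes left out, no trend, the library number as a block, and each library left out in turn.

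The genes and lists were chosen with earlier results of these data known. All 9 genes were named; from each other list, up to 4 tested genes with the largest change among those whose groups did not overlap; and the 5 genes most like Slc4a1. Slc4a2, Ank2, Ank3 and the neighbours of Slc4a1 were named after their values were seen. Symbols turned into dates (24) were restored by gene ID, and coordinates came from RefSeq (GRCm38.p6), which matched 16312 gene IDs.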

Additional observations from a re-analysis of the deposited data

How the results depend on the processing

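No gene of the 9 passed under any alternative except the replicate block and the fits without a knockout library. With the library number as a block 3 of them passed (Ank1, Epb42 and Slc4a1, the last at an unmoved log2 change of −4.18), beside 1863 of all 10670 tested genes. The same 3 passed with the block and median-centred values together (Slc4a1 at −4.25), a fit chosen after seeing the data, beside 1391 of all tested genes. In the related lists 0 genes passed with all 4 libraries and no block. The block alone gave 10 of 22 other blood group genes (Emp3, Bcam, Cd59a and Art4 among them), 6 of 14 complex and skeleton genes and 3 of 9 paralogs. It also gave 2 of 10 enzymes and kinases, 1 of 5 binding partners, 3 of 12 transcription factors, 4 of 9 erythroid markers, 2 of 4 megakaryocyte markers and Cebpa. These counts stand beside the 1863 of 10670 tested genes that passed with the block. Cd59a had entered the test only through its knockout values. Some genes of these lists also passed without knockout library 1 or without knockout library 2, where only the wild-type pair gives a spread. The labels do not say that the numbers pair the samples. Across tested genes the difference between libraries 1 and 2 correlated between genotypes (r = 0.61, across genes, which are not independent). With 1 library left out, 0 to 3 of the 9 passed and Slc4a1 ran from −5.52 to −2.83. Over all genes, the 10 that passed became 0 without the filter on low values (1692 at an unadjusted p under 0.05), 2 with a mean of at least 5 FPKM, 21 without globin genes, 1863 with the replicate block, 1391 with the block and median-centred values, and between 3 and 738 with 1 library left out. The cause was not tested. The direction turned for Rhag (−0.31 to 0.020) and Rhd (−0.32 to 0.084) with 1 library left out. That of Xk turned with 1 library left out (−0.24 to 0.35), with median-centred values (−0.024, and −0.024 with the block added), with quantile normalization (−0.00032) and without globin genes (−0.0039). Directions of the other 6 genes held in every alternative run. Fits that leave a group with 1 library assume that it varies like the other group.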

Other observations

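The genes around Slc4a1 on chromosome 11 gave a view of its neighbourhood within 40 kb. Slc25a39 (102402969 to 102408675), a mitochondrial carrier gene, measured 220 and 199.9 FPKM in the wild-type libraries against 140 and 120 FPKM in the knockout libraries (a log2 change of −0.69 ± 0.15 SE, adjusted p = 0.195 in limma). Ubtf (102304560 to 102323649), which encodes a factor for ribosomal RNA transcription, had wild-type values of 52.0 and 41.4 FPKM against knockout values of 42.2 and 25.3 FPKM (log2 change −0.49, limma adjusted p = 0.558), with overlapping groups. Rundc3a, in the same order, had 1.92 and 1.41 FPKM against 1.77 and 0.79 FPKM (limma adjusted p = 0.805). The noncoding gene Bloodlinc (102375551 to 102377020) was listed at 0.08 FPKM in wild-type library 1 and at 0 in the other 3 libraries. None of the tested neighbours passed, and none of them was lower by as much as Slc4a1. Bloodlinc did not reach the filter of 1 FPKM and was not tested.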
